A study of Ovis aries with 5 samples.

Results

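H3K27ac, the acetylation of lysine 27 on histone H3, marks active promoters and active enhancers. It was mapped by ChIP-Seq in perirenal adipose tissue of sheep, and 2109 regions were acetylated in both libraries while overlapping no region of the joint H3K27ac list that the study deposited. They were found by merging the peaks of both libraries that share at least 1 bp on chromosomes 1 to 26. This gave 58064 merged regions, of which 37003 held a peak from each library. Of the shared regions 34894 overlapped the joint list, and the remaining 2109 (5.70%, 95% Wilson interval 5.47 to 5.94%) are the regions outside the list that are described here. The regions were thus chosen by H3K27ac peaks of these libraries, and the H3K27ac values below describe the choice and were not tested.

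The tissue came from untreated, pure bred merino fetuses of wild type genotype, at 132 days of gestation by the labels, while the methods of the study give a slightly lower age. The 2 H3K27ac libraries came from 2 fetuses, called replicate 1 and replicate 2, and the H3K4me3 libraries of the same replicate numbers carry the same animal numbers in the labels. The control for every library was 1 input library of nucleosomal DNA pooled over the fetuses. After duplicate removal 144038222 and 145716523 H3K27ac tags were left in replicates 1 and 2, 92882463 and 109652707 H3K4me3 tags, and 26651829 input tags. Pieces of whole tissue were used, which hold several cell types, and a mark carried by fewer cells cannot be told apart from less of the mark per cell. The labelled tissue was not checked against marker genes, since gene positions on the build of the files were not used here.

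Perirenal fat of the late fetal lamb is rich in brown adipocytes, which burn lipid to keep the newborn warm. An acetylated region that also carries H3K4me3, the trimethylation of lysine 4 on histone H3, is usually a promoter, and one without it is usually read as a distal enhancer. H3K27me3 occupies the same lysine as H3K27ac and is laid down by the Polycomb complex at silent genes. A nucleosome tail can carry acetyl or methyl groups on this lysine, but not both at once.

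The peak lists show where these regions stood among all peaks of their library. MACS, the peak caller, gives each peak a score of -10 times the log10 of its p-value. It also gives an FDR obtained by exchanging the input and the immunoprecipitated library. The name of the joint H3K27ac list gives an FDR limit of 10%, which is used here. The methods of the study give lower FDR limits for H3K27ac and H3K4me3 than the names of their lists. On chromosomes 1 to 26, every peak with an FDR above 10% had a score of at least 518.36 in replicate 1 and 463.36 in replicate 2, and every peak within 10% had a lower score. The peaks above the limit, 1557 and 1883, were thus the highest-scoring peaks of their library. A region outside the list always held such a peak: 860 (40.8%) held one in both libraries, 519 (24.6%) in replicate 1 alone and 730 (34.6%) in replicate 2 alone. Since the FDR followed the score, a high score was fixed by the choice.

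The values next to the limit show how narrow the step was. Just above the limit, and so outside the list, was the region on chromosome 1 from 156783063 to 156787972. It held 879 tags in replicate 1 and 1018 in replicate 2, with FDR values of 10.01% and 7.90%. On chromosome 19, the region from 26099546 to 26104719 held 743 and 1038 tags with FDR values of 4.28% and 10.01%, and on chromosome 11 that from 42271983 to 42288150 held 2836 and 1709 tags with 4.30% and 10.02%. Just within the limit lay 3 shared regions that overlapped the joint list. On chromosome 7 the region from 56900661 to 56908308 held 1571 and 1466 tags at an FDR of 8.70% and 9.98%. The region on chromosome 13 from 43075486 to 43087700 had 2466 and 2391 tags (9.42% and 9.93%), and that on chromosome 18 from 40850471 to 40859927 had 1473 and 1135 tags (9.12% and 9.93%). Tag counts on either side of the limit overlapped.

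The regions outside the list were long and densely acetylated. Their median length was 8593 bp (range 2789 to 30809 bp), against 4309 bp for the other shared regions. They held a median of 200.4 tags per kb in replicate 1 and 198.6 in replicate 2, against 150.3 and 148.1 in the other shared regions. The scaled density is given as tags per kb and per 1000000 tags of the library. Its median was 1.39 in replicate 1 (quartiles 1.28 and 1.51), and 1.36 in replicate 2 (quartiles 1.26 and 1.49). The other shared regions had medians of 1.04 and 1.02. In replicate 1, 98.96% of the regions outside the list were denser than the median of the others, and in replicate 2 98.6%. The fold enrichment over the input, taken from the highest value in each region, had medians of 38.4 and 38.3 in the fetuses, against 25.7 and 25.5. In total the regions outside the list covered 19.4 Mb, beside 183.0 Mb of the joint list on the same chromosomes.

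**Figure D1:**
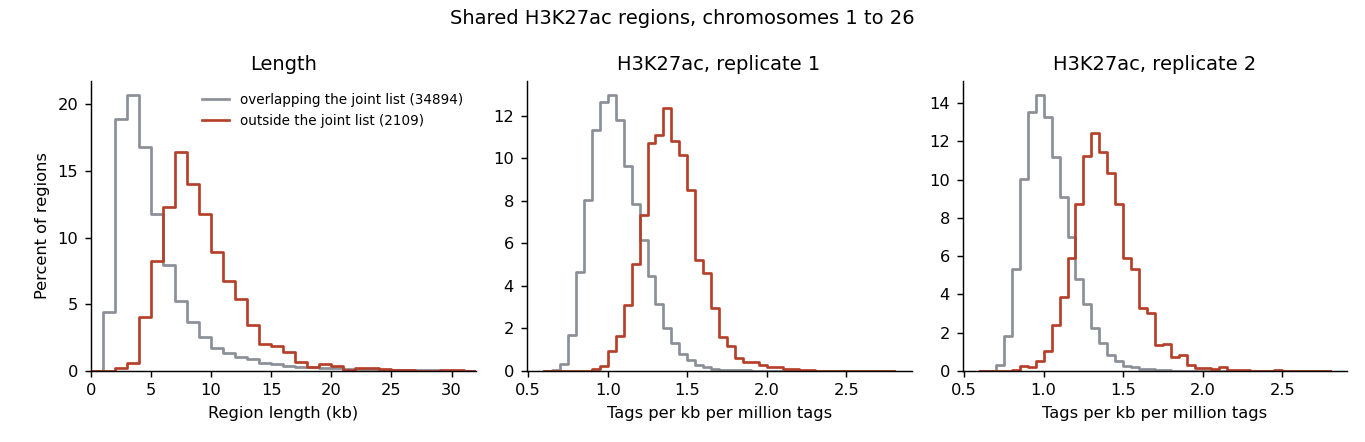
Length in kb and scaled H3K27ac density (tags per kb and per 1000000 tags), for 2109 shared regions outside the joint list (red) and 34894 that overlap it (grey), as percent of each set. The red curves lie to the right of the grey ones, with median lengths of 8593 and 4309 bp, and the curves overlap.

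Tag density, taken over each library's own peaks, was close between the 2 fetuses. It leaves out how much of a region each library called as peaks, so total tags can differ more. The longest region held 6155 tags in replicate 1 and 2922 in replicate 2, at densities of 1.39 and 1.67. Median tag counts over the regions were 1586 and 1546. Tags over a common interval were not compared. The log2 ratio of density, replicate 2 over replicate 1, had a median of -0.01 (SD 0.17 over regions). Of the 2109 regions 0 differed in density by more than 1.5-fold in either direction. Such differences were also rare in the other shared regions, at 24 of 34894 (0.07%). Across regions the densities of both libraries had a Pearson correlation of 0.61 on the log2 scale and a Spearman correlation of 0.58 (n = 2109 regions, which share the libraries and the input). The MACS score varied more than these densities. In the median region outside the list the scores of both libraries differed by 1.33-fold, the fold enrichments by 1.10-fold and the tag densities by 1.08-fold. Scores differed by more than 2-fold in 341 regions (16.2%) and fold enrichments in 1. The other shared regions were alike in this, with a median score ratio of 1.34-fold, a median density ratio of 1.08-fold and 14.4% of scores more than 2-fold apart. Their densities had a higher Pearson correlation, 0.72. The 1249 regions above the limit in 1 library had a median score ratio of 1.54-fold and a median density ratio of 1.10-fold.

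The region of highest mean density shows the same. It lay on chromosome 19 from 56658553 to 56674538 with 5211 tags from replicate 1 and 5311 from replicate 2. The fold enrichments were 53.6 and 52.9. Its score was 498.37 in replicate 1 and 1960.55 in replicate 2, and its FDR 9.18% and 100%. The libraries gave nearly equal tags and placed the region on opposite sides of the limit.

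**Figure D2:**
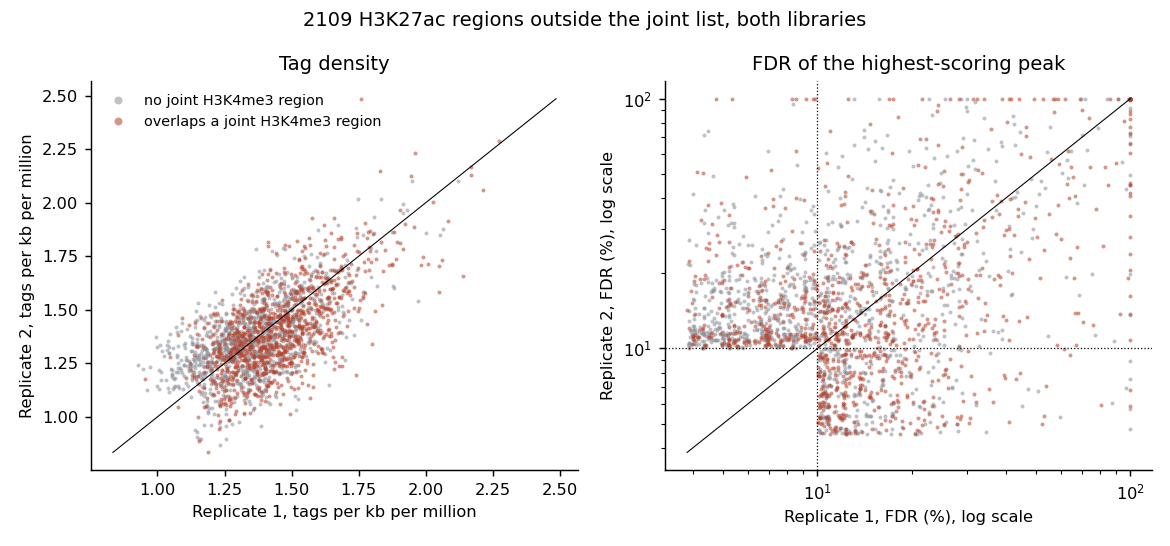
Each point is 1 of the 2109 regions outside the joint list, with replicate 1 on the horizontal and replicate 2 on the vertical axis. Scaled densities (left), each over the library's own peaks, follow the line of equality. FDR values (right, percent, log scales, dotted lines at 10%) start at 3.83% (replicate 1) and 4.53% (replicate 2) and reach 100%.

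In 1804 of the regions outside the list (85.5%) each library had 1 peak, against 90.1% of the other shared regions, and the largest number of peaks merged into a region was 5. The summits of the highest-scoring peaks of both libraries lay a median of 292 bp apart, and within 200 bp in 962 regions (45.6%, Wilson interval 43.5 to 47.7%). In the other shared regions, which are shorter, the median was 153 bp.

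The strongest regions are given with their values in both libraries. On chromosome 2 from 164355295 to 164371407 there were 5025 and 5087 tags (a scaled density of 2.17 in each library). On chromosome 19 from 21927111 to 21933096 there were 1867 and 1822 tags (2.17 and 2.13), and on chromosome 25 from 19499594 to 19503967 there were 1260 and 1308 tags (2.21 and 2.06). These 3 differed little between the fetuses, and each overlapped an H3K4me3 region. The region on chromosome 14 from 49846772 to 49851694 held 1246 and 1783 tags (1.76 and 2.49), the widest difference among the 10 densest regions. Of these 10, the regions on chromosome 25 from 14973276 to 14977366 (1249 and 1140 tags) and on chromosome 9 from 57485858 to 57488646 (762 and 853 tags) overlapped 0 joint H3K4me3 regions, and the other 8 overlapped at least 1. The second of these, at 2789 bp, was the shortest of all the regions outside the list. On chromosome 17 from 50477379 to 50484589 there were 2106 and 2074 tags, with an FDR of 100% in both.

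By fold enrichment over the input, the highest lower value of the 2 libraries belonged to the region on chromosome 2 from 148936148 to 148956532, with 60.7-fold in replicate 1 and 61.2-fold in replicate 2. Next came chromosome 1 from 139213413 to 139236503 (60.2-fold and 64.1-fold) and chromosome 3 from 38131389 to 38142276 (60.7-fold and 60.2-fold). The region on chromosome 11 from 54821762 to 54829807 had 61.2-fold and 59.7-fold. All of these overlapped an H3K4me3 region.

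The longest region, on chromosome 19 from 56592345 to 56623153, spanned 30809 bp. Its peaks held 6155 tags in replicate 1 and 2922 in replicate 2, at densities of 1.39 and 1.67, so that the shorter peaks of replicate 2 were the denser ones. The region on chromosome 25 from 19544965 to 19574772 (29808 bp) went the other way, with 2509 and 5853 tags at densities of 1.56 and 1.35. On chromosome 12 from 23516294 to 23542823 (26530 bp) the libraries were alike, with 5425 and 5962 tags at 1.55 and 1.56. Lengths of 12 kb or more were reached by 354 regions outside the list (16.8%) and by 1693 of the other shared regions (4.85%).

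H3K4me3 was not used in the choice, though its libraries share the fetuses and the input. Of the 2109 regions outside the list, 977 overlapped a region of the joint H3K4me3 list by at least 1 bp. This was 46.3% (interval 44.2 to 48.5%), and these intervals cover counting error only. Over all 37003 shared regions the share was 25.9%, and over the 34894 that overlap the joint H3K27ac list it was 24.7% (interval 24.2 to 25.1%). Each H3K4me3 library alone, at the FDR of at most 1% in the name of the joint H3K4me3 list, gave the same order. Replicate 1 had a peak in 1037 regions outside the list (49.2%) against 26.6% of the others, and replicate 2 in 1235 (58.6%) against 27.2%. Replicate 2 was sequenced more deeply than replicate 1, and the part of depth in this difference was not tested. Regions are not replicates, and no test over the 2 fetuses was run.

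The share was also higher within each length class, by point values. Among regions under 5 kb, 61 of 102 outside the list overlapped H3K4me3 (59.8%, interval 50.1 to 68.8%), against 24.7% of the others. Between 5 and 10 kb it was 592 of 1323 (44.7%, interval 42.1 to 47.4%) against 22.5%, and between 10 and 20 kb 308 of 658 (46.8%, interval 43.0 to 50.6%) against 31.6%. At 20 kb and over, 16 of 26 regions (61.5%, interval 42.5 to 77.6%) stood beside 51.1% of the others (interval 45.3 to 56.8%), and these intervals overlap.

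The share rose with the H3K27ac score on both sides of the limit. For each region the higher of the 2 scores was divided by the lowest score above the limit in its library. Among shared regions of the joint list, H3K4me3 was found at 15.6% of those below 25% of the limit, at 25.6% from 25 to 50%, at 33.9% from 50 to 75% and at 39.7% (interval 37.9 to 41.6%) from 75 to 100%. Outside the list the share was 43.3% (interval 40.4 to 46.3%) from 100 to 125% of the limit, 45.4% from 125 to 150%, 51.1% from 150 to 200% and 60.7% (interval 52.4 to 68.4%) at 200% and over. Another 318 shared regions held a peak above the limit and still overlapped the joint list, and 150 of them carried H3K4me3 (47.2%, interval 41.7 to 52.7%). The classes on either side of the limit had overlapping intervals.

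**Figure D3:**
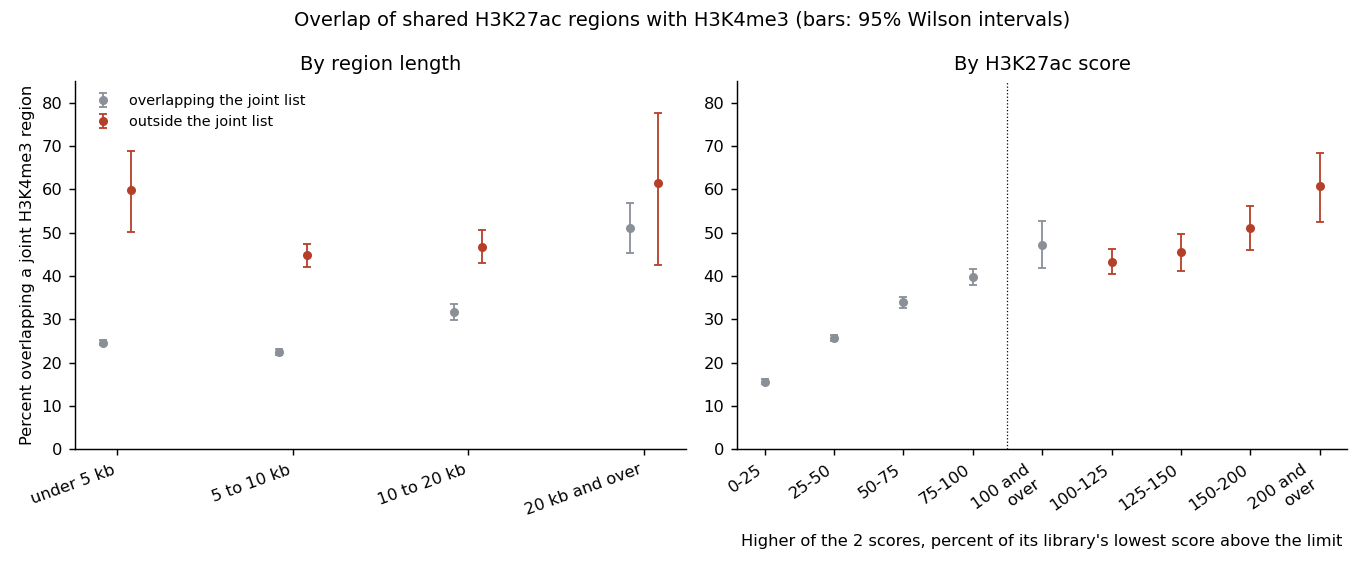
Percent of shared H3K27ac regions that overlap a joint H3K4me3 region, by length class (left) and by score as percent of the limit (right, dotted line at the limit), with 95% Wilson intervals; grey regions overlap the joint H3K27ac list and red ones do not. The red points are at 59.8, 44.7, 46.8 and 61.5% from short to long, and on the right the share rises from 15.6% in the lowest class to 60.7% in the highest.

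In the regions outside the list with H3K4me3, 884 of 977 (90.5%) overlapped 1 H3K4me3 region, 89 overlapped 2 and 4 overlapped 3. H3K4me3 covered a median of 59.0% of the acetylated region (quartiles 40.4 and 78.1%), or 4771 bp. In the other shared regions with H3K4me3 it covered 67.1% or 2590 bp. Where there was 1 H3K4me3 region, it lay wholly within the acetylated region in 697 of 884 cases (78.8%). It passed 1 edge in 184 and both edges in 3. Its middle lay in the outer part of the region, beyond 50% of the way from centre to edge, in 126 (14.3%). In the other shared regions, which are shorter, it lay wholly within in 5045 of 8254 cases (61.1%), with its middle in the outer part in 18.3%. Acetylation thus usually extended past H3K4me3 on either side in both sets.

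The H3K4me3 peaks there had a median scaled density of 2.60 in replicate 1 (quartiles 2.09 and 3.02) and 3.30 in replicate 2 (quartiles 2.69 and 3.92). In the other shared regions the medians were 2.63 and 3.04. The interquartile ranges overlapped in both libraries, and only replicate 2 had the higher median outside the list. The H3K4me3 regions themselves were longer there. The 1039 joint H3K4me3 regions that met a region outside the list and no joint H3K27ac region had a median length of 4437 bp, against 2809 bp for the 8703 that met a joint H3K27ac region and 2310 bp for the 5608 that met neither.

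Seen from the side of H3K4me3, 6647 of 15350 joint H3K4me3 regions on chromosomes 1 to 26 overlapped no joint H3K27ac region (43.3%, interval 42.5 to 44.1%). Of these, 1039 overlapped a region outside the list (15.6%, interval 14.8 to 16.5%). With the regions outside the list counted, the H3K4me3 regions that overlap shared acetylation were 63.5% instead of 56.7%. Among the 621 H3K4me3 regions of 8 kb or more, 115 met a region outside the list (18.5%, interval 15.7 to 21.8%), against 6.97% of all H3K4me3 regions. A joint H3K27ac region was met by 44.6% of those of 8 kb or more and by 56.7% of all.

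The 2 libraries differed in how they placed regions with and without H3K4me3. Of the regions above the limit in replicate 1 alone, 274 of 519 carried H3K4me3 (52.8%, interval 48.5 to 57.1%), and of those above it in replicate 2 alone, 249 of 730 (34.1%, interval 30.8 to 37.6%). Above the limit in both libraries it was 454 of 860 (52.8%). The tag densities moved the same way. Among regions with H3K4me3, replicate 2 was the denser library in 366 of 977 (37.5%), with a median log2 ratio of -0.05 (SD 0.16). Among those without, it was denser in 622 of 1132 (54.9%), with a median of 0.02 (SD 0.17). The other shared regions showed the same order, at 25.5% with H3K4me3 and 46.9% without. The shift is smaller than the spread over regions, and with 1 library per fetus it cannot be told apart from a difference between library preparations.

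The 1132 regions outside the list without a joint H3K4me3 region (53.7%) are those that would be read as distal enhancers. Their median length was 8658 bp, against 8489 bp with H3K4me3, and their median fold enrichments were 36.4 in replicate 1 and 37.4 in replicate 2, against 40.8 and 39.3. The nearest joint H3K4me3 region lay a median of 44713 bp away (quartiles 18436 and 116032 bp), and within 5 kb in 88 (7.77%, interval 6.35 to 9.48%). For the other shared regions without H3K4me3 the median was 47766 bp, and 8.78% had one within 5 kb. By distance to H3K4me3, the regions outside the list and the others without H3K4me3 were close. The definition matters for this class. At any FDR, an H3K4me3 peak of replicate 1 overlapped 71.8% of all 2109 regions outside the list, and one of replicate 2 overlapped 91.9%. In the other shared regions these shares were 38.7% and 53.3%. The shares outside the list include the 977 regions with a joint H3K4me3 region. A peak of either library at any FDR overlapped 93.6%, so by that definition few regions outside the list would be left in this class.

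H3K27me3 was rare. A region of the joint H3K27me3 list overlapped 25 regions outside the H3K27ac list, or 1.19% (interval 0.804 to 1.74%), against 1.74% over all shared regions and 1.78% (interval 1.64 to 1.92%) over those in the joint list. Of the 25, 23 also overlapped H3K4me3 (92.0%, interval 75.03 to 97.78%), and of 620 other shared regions with H3K27me3, 394 did (63.5%, interval 59.7 to 67.2%). Regions with H3K4me3 and H3K27me3 together are often called bivalent, a state known from genes of development. Both marks were found at 23 of all 2109 regions outside the list (1.09%) and at 394 of the 34894 other shared regions (1.13%). By this count the regions outside the list were not more often bivalent. H3K4me3, with or without H3K27me3, was more frequent outside the list (46.3% against 24.7%). H3K27me3 covered a median of 18.1% of these 25 regions, against 39.5% of the others with H3K27me3. In bases the medians were 2009 and 1748 bp, in regions with median lengths of 10310 and 4337 bp.

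The 5 largest overlaps with H3K27me3 were spread over chromosomes 2, 3 and 4. On chromosome 2 the region from 39354330 to 39373701 held 3964 and 2949 H3K27ac tags and overlapped 4 H3K27me3 regions over 11027 bp, or 56.9% of its length, and H3K4me3 covered 98.2% of it. On chromosome 3 the region from 41640139 to 41648685 (1684 and 1640 tags) was covered to 93.0% by H3K27me3 and to 98.2% by H3K4me3. These were the only 2 of the 25 with H3K27me3 over at least 50% of their length. On chromosome 2 from 164339879 to 164354194 (3572 and 3761 tags) H3K27me3 covered 6918 bp, and the next region along, from 164355295, is the second densest of all and shared 2009 bp with H3K27me3. On chromosome 3 from 13887667 to 13895493 H3K27me3 covered 3612 bp, and on chromosome 4 from 24166238 to 24183981 2763 bp. Both marks were called from pieces of tissue and lie on the same lysine, so overlap here says that both occur in the tissue and not that 1 nucleosome carries both.

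The regions outside the list lay among other acetylated regions. The nearest row of the joint H3K27ac list was a median of 2656 bp away, edge to edge (quartiles 473 and 9487 bp), and within 5 kb in 1306 regions (61.9%, interval 59.8 to 64.0%). Rows of the joint list were a median of 6020 bp from the next row, and 46.4% had one within 5 kb. Joint rows lay within 5 kb on both sides of 345 regions (16.4%), on 1 side of 961 (45.6%) and on neither side of 803 (38.1%). The counts by side are not given for joint rows. With H3K4me3 59.9% had a joint row within 5 kb and without it 63.7%. Most of the regions outside the list thus had a listed neighbour at short range.

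**Figure D4:**
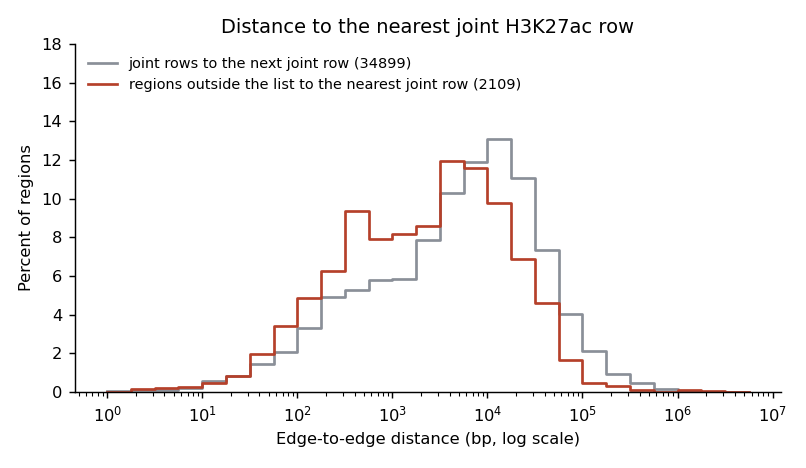
Edge-to-edge distance in bp (log scale) from each of the 2109 regions outside the list to the nearest joint H3K27ac row (red), and from each of 34899 joint rows to the next joint row (grey), as percent of each set. The medians are 2656 and 6020 bp.

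Within 50 kb of a region outside the list there was a median of 4 joint rows, and 71 regions (3.37%) had 0. For the other shared regions, their own row not counted, the median was 3 and 9.15% had 0. The most isolated was on chromosome 1 from 79962921 to 79967513, with 988 and 1066 tags, an H3K4me3 region over 84.3% of its length and the nearest joint row 1836430 bp away. On chromosome 26 the region from 9113690 to 9120964 (1008 and 1191 tags) lay 1687889 bp from a joint row and carried no joint H3K4me3 region. The region on chromosome 4 from 22235242 to 22242334 (1382 and 1448 tags) lay 1207963 bp away and carried H3K4me3. On chromosome 1 from 172196019 to 172202522 the distance was 398465 bp, and on chromosome 4 from 13936053 to 13941565 it was 396210 bp. Both libraries had a peak in each of these 5 regions, above the limit in both for the region on chromosome 4 from 22235242 and in replicate 2 alone for the other 4.

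When regions outside the list within 20 kb of each other were joined, 462 (21.9%) fell into 209 runs of at least 2. Of these runs 32 had 3 or more. Runs of joint rows are not given, so these counts have no background. Within 10 kb, 16.1% of the regions outside the list had another such region. Among the more numerous joint rows, 60.6% had another joint row within 10 kb. The longest run lay on chromosome 4 from 40417794 to 40555721. It held 10 regions of 4951 to 19670 bp, which filled 77.1% of its 137928 bp, with 3 joint rows between them. All 10 were denser in replicate 2 than in replicate 1. The scaled densities spanned 1.35 to 2.23 in replicate 2, and 1.17 to 1.96 in replicate 1. Of the 10, 5 were above the limit in both libraries.

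Joint H3K4me3 regions lay at 1 end of this run. They covered 15121 of 15353 bp of the first region (3364 and 4062 H3K27ac tags), 19510 of 19670 bp of the second (5509 and 6030 tags) and 8607 of 9552 bp of the third (2698 and 3061 tags). The first 3 regions followed each other almost without a break. The second had fold enrichments of 61.7 and 60.0, and the fold enrichments over the run spanned 27.7 to 61.7 (replicate 1) and 34.2 to 60.0 (replicate 2). The other 7 regions overlapped 0 joint H3K4me3 regions, though H3K4me3 replicate 2 had peaks over some of them, at the far end too, and the run held 0 H3K27me3 regions. Next in size were runs of 4, on chromosome 8 from 25270315 to 25340194 (14653 and 14947 tags, 3 of 4 with H3K4me3) and on chromosome 22 from 31657699 to 31704245 (9318 and 8847 tags, 4 of 4 with H3K4me3).

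**Figure D5:**
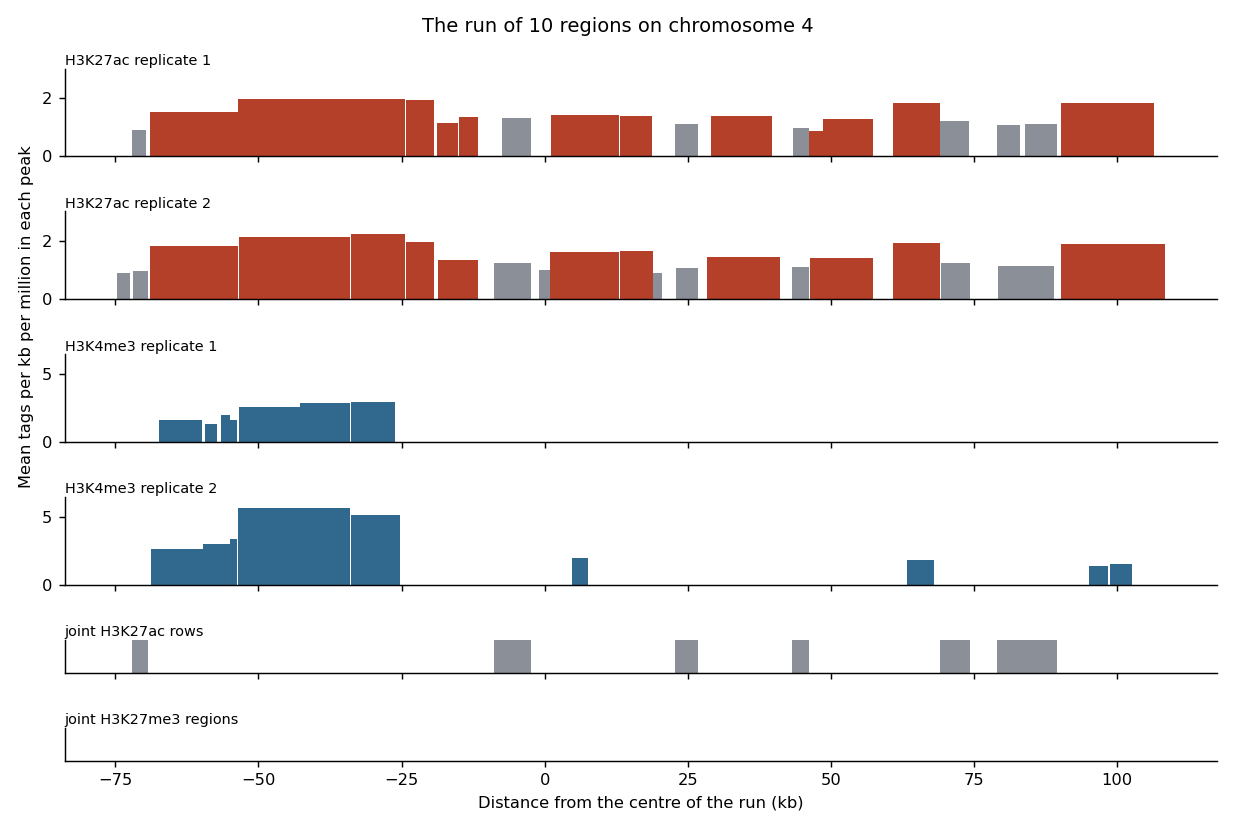
Peaks of each H3K27ac and H3K4me3 library around the run on chromosome 4, by distance from its centre in kb. Heights are the scaled density of each peak. Red H3K27ac peaks belong to regions outside the joint list, grey ones do not, and H3K4me3 peaks are blue. The lower tracks show joint H3K27ac rows and joint H3K27me3 regions. The 10 regions fill 77.1% of the run, joint H3K4me3 regions (not drawn) lie over the first 3, and there are 0 joint H3K27me3 regions. The red peaks from 90.2 kb belong to a further region outside the list, past the end of the run.

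The regions outside the list were found on every autosome, from 19 on chromosome 21 to 264 on chromosome 1. As a share of the shared regions of a chromosome they ran from 3.06% on chromosome 23 (26 of 850, interval 2.10 to 4.44%) to 6.99% on chromosome 4 (109 of 1560, interval 5.82 to 8.36%). The 3 lowest shares were on chromosomes 23, 21 and 24.

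Some of them lay where the study looked for selection. Selection sweeps are stretches of low diversity in domestic sheep, and the study lists the genes closest to each. These regions were looked up after the other values had been seen. In 29 sweep regions there were 31 regions outside the list (1.47%, interval 1.04 to 2.08%), against 1.30% of the other shared regions. These shares were close. How many of all 635 sweep regions hold 0 joint rows is not given, so the count of 6 below has no background. Of the 31, 14 carried H3K4me3, beside a share of 46.3% over all regions outside the list. In 6 of the sweep regions they lay where the joint list had 0 rows. They include the sweep beside SOCS2, a feedback inhibitor of growth hormone signalling, where the region on chromosome 3 from 129736588 to 129743515 held 1263 and 1407 tags and an H3K4me3 region and lay 75072 bp from the nearest joint row. At SIAH1, a ubiquitin ligase, the region on chromosome 14 from 16291321 to 16300554 held 2015 and 1923 tags, with FDR values of 95.3% and 81.4%, and carried H3K4me3.

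Further sweep regions of this kind lay at RECK, a membrane-bound inhibitor of matrix metalloproteinases (940 and 1005 tags), beside AKR1D1, an enzyme of bile acid synthesis (1537 and 1546 tags), and beside ANXA6. The last held a pair of regions with 1625 and 1404 tags and with 2514 and 2050 tags. Near KITLG, the ligand of the receptor KIT that melanocytes depend on, 1 region outside the list lay in each of 2 sweep regions, on chromosome 3 from 124656345 to 124665771 (1385 and 1460 tags) and from 124930810 to 124939734 (1102 and 1478 tags). Both were above the limit in replicate 2 alone and carried no H3K4me3. Unlike the sweep regions above, the sweep regions near KITLG did hold joint rows, 2 and 13 in this order. The nearest joint row lay 4374 and 10587 bp from the region outside the list.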

How the data were processed

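Reads were mapped to Oar_v3.1 and peaks called by the authors in each library with MACS 1.4.2 against the pooled input, at a p-value limit of 1e-05 with 1 tag kept per position. The deposited lists give for each peak a count of tags, a score of -10 times the log10 of the p-value, a linear ratio of enrichment to the input, and an FDR in percent, all made by the authors. The joint lists hold positions. The 10 value columns of 2 H3K27me3 peak lists were left out, since the labels name no sample for those lists.

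Overlap needed 1 bp. Density is the tags of a region's peaks over their summed length, per 1000000 tags left after duplicate removal. Shares have 95% Wilson intervals, which cover counting error only. No test was run, since the choice used H3K27ac and there are 2 fetuses. Regions named are the 10 densest of 2 kb or more, the 5 longest, the 5 of highest lower fold, 3 on each side of the limit, the 5 most isolated and the 5 largest overlaps with H3K27me3, of which the text gives most. The regions, lists and rules were chosen with earlier results of these data known. For 1 sweep region the values are not reported here. Gene starts and sequences on Oar_v3.1 were not analysed here. The overlap code was tested on simulated data. Positions are 1-based. The scripts ran on Python 3.11.15 with pandas 2.3.3 and numpy 2.4.6, with matplotlib 3.10.9 for plots and scipy 1.17.1 for intervals and correlations.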

Additional observations from a re-analysis of the deposited data

How the results depend on the processing

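The number of regions outside the list was 2031 with a reciprocal overlap of 50% and 2115 with X included. It fell to 1354 with no joint row allowed within 1 kb and to 860 with a peak above an FDR of 10% in both libraries. With 1 library a peak from each cannot be asked for. The counts of 1430 from replicate 1 alone and 1687 from replicate 2 alone thus follow another rule and cannot be compared. The share with H3K4me3 was 29.6% with at least 50% of the region covered, 36.4% at the midpoint, 47.6% within 1 kb and 93.6% with a peak of either library at any FDR, and 49.2 to 58.6% from 1 H3K4me3 library alone. The share with H3K27me3 was 0.0948% with at least 50% covered, 0.379% at the midpoint and 1.38% within 1 kb. The median length was 7572 bp over bases covered by both libraries and 8025 to 8126 bp in 1 library. The median density was 1.37 as the mean of both libraries, 1.13 when scaled to tags before duplicate removal, 1.38 from the longest peaks, and 1.36 to 1.39 in 1 library. A joint row lay within 1 kb of 35.8% and within 10 kb of 76.1%, and a joint row or another region outside the list within 5 kb of 67.5%. No paired analysis was possible because no result comes from a test, and values of each fetus stand side by side in the report. The planned count of gene starts was not run. The input had 26651829 tags, fewer than each ChIP library, and its part in the scores and FDR values was not tested.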

Other observations

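Chromosome X, which the choice left out, held 373 shared H3K27ac regions, of which 6 (1.61%) overlapped no joint row. Their lengths ran from 4672 to 10097 bp, 4 overlapped a joint H3K4me3 region and 3 a joint H3K27me3 region. The same shares over all 373 shared regions of this chromosome are not given, so these small counts have no background to be read against.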
